A study of Homo sapiens with 4 samples.

Results

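The ATF4 amino acid stress response was followed as 41 listed genes, comprising ATF4, its partners and the amino acid genes known to respond to it, in Jurkat cells after knockdown of the transcription factor LEF1. Each gene was read by its brightest probe set with a single gene symbol on the HG-U133 Plus 2.0 array, and 39 of the 41 had one, out of 19775 genes on the array. MARS1 was left out because its 3 probe sets are annotated together with a microRNA, and GPT2 was not analysed here. Jurkat is an established human T-cell leukemia line, the only cell line used, and no other modification of the cells is stated. The siLEF1 group had 2 arrays, of cells given 100 nM of a pool of siRNAs against LEF1. The siNT group had 2 arrays, of cells given 100 nM of a non-targeting pool, and both groups share the HiPerFect transfection. All cells were cultured for 24 h afterwards, and the labels call the replicates biological. Values are robust multichip average (RMA) signals on the log2 scale, in which a difference of 1 is a doubling. Each gene was tested as siLEF1 minus siNT with limma, p-values were adjusted over all 54613 probe sets, and a gene was called at an adjusted p under 0.05 with a fold change over 2.

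ATF4 is a transcription factor that is made mainly when translation is slowed by phosphorylation of the initiation factor eIF2, for example by the kinase GCN2 when amino acids run short or by PERK under endoplasmic reticulum stress. With C/EBP partners it binds composite C/EBP-ATF response elements and raises amino acid transporters, enzymes that make serine, glycine and asparagine, and the synthetases that load tRNAs. It also raises factors that end or change the response, such as DDIT3 (CHOP), TRIB3 and PPP1R15A (GADD34). In leukemic T cells the same genes supply amino acids for growth.

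LEF1 itself was at 11.24 and 11.56 under siLEF1, against 12.30 and 11.92 under siNT, with a log2 fold change of -0.71 that did not pass (standard error 0.20, limma adjusted p = 0.191). Its dimmer probe sets had -0.93 with the groups apart (limma adjusted p = 0.141) and -0.19 with the groups overlapping (limma adjusted p = 0.673). Over all probe sets (not independent of each other), Pearson's r was 0.995 for the siLEF1 pair and 0.990 for the siNT pair. Between the groups, siNT replicate 2 had 0.979 and 0.980 with the siLEF1 arrays. With siLEF1 replicate 1, siNT replicate 1 had 0.988, close to the value within the siNT pair. All 9 T-lineage markers were above the array median in the siLEF1 arrays and in siNT replicate 1, and 8 in siNT replicate 2, where CD2 lay just below it. Of these 9 markers, 5 had both siLEF1 arrays above both siNT arrays, as did 28.1% of all genes. Among genes with a mean log2 signal of at least 6 the share was 32.3%. Over the 9 markers the median log2 fold change was 0.43, and siNT replicate 2 minus siNT replicate 1 had a median of -0.42. The 4 measured B-lineage markers ran from 3.69 to 6.54 and the 4 myeloid ones from 2.90 to 5.58 over the 4 arrays. The array medians were 4.84 to 4.85. Above the median were 2 B-lineage markers in every array, and 1 myeloid marker (2 in siNT replicate 2). The 5' minus 3' signal of the ACTB controls, a sign of RNA quality, was -1.08 and -1.55 under siLEF1 and -1.80 and -1.95 under siNT. The part of this difference, and of the T-lineage one, in the results given here was not tested.

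Of the response 1 gene was called, TRIB3, which fell 2.54-fold in siLEF1 cells, and 0 were called higher. Over all genes 0.263% were called lower and 0.0657% higher. At an unadjusted p under 0.05 there were 13 lower members, where the share over all genes was 11.5%, and 6 higher members, where it was 7.00%. Among genes with a mean log2 signal of at least 6, which include 36 of the members, these shares were 16.1% and 10.7%. A fitted difference of more than 2-fold was found for 4 members, all lower (ATF3, DDIT3, PPP1R15A and TRIB3), against 2.90% of all genes lower and 0.450% higher by that size, and 3.33% and 0.765% of the brighter genes. In 16 members both siLEF1 signals lay below both siNT signals and in 18 both lay above. The same held for 26.4% and 28.1% of all genes (54.5% in either direction), and for 35.3% and 32.3% of the 10324 brighter genes (67.6% in either direction), of which 32 of 36 members were apart. In all, 34 of the 39 members were without overlap. With the arrays centred on housekeeping genes the split was 19 below and 13 above, where 35.9% of all genes were below and 17.6% above. Over the 39 members the median log2 fold change was -0.03, against 0.02 for all genes, and the values ran from -2.65 to 0.75. There were 20 values below 0, where 46.5% of all genes were, and 19 above.

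**Figure D1:**
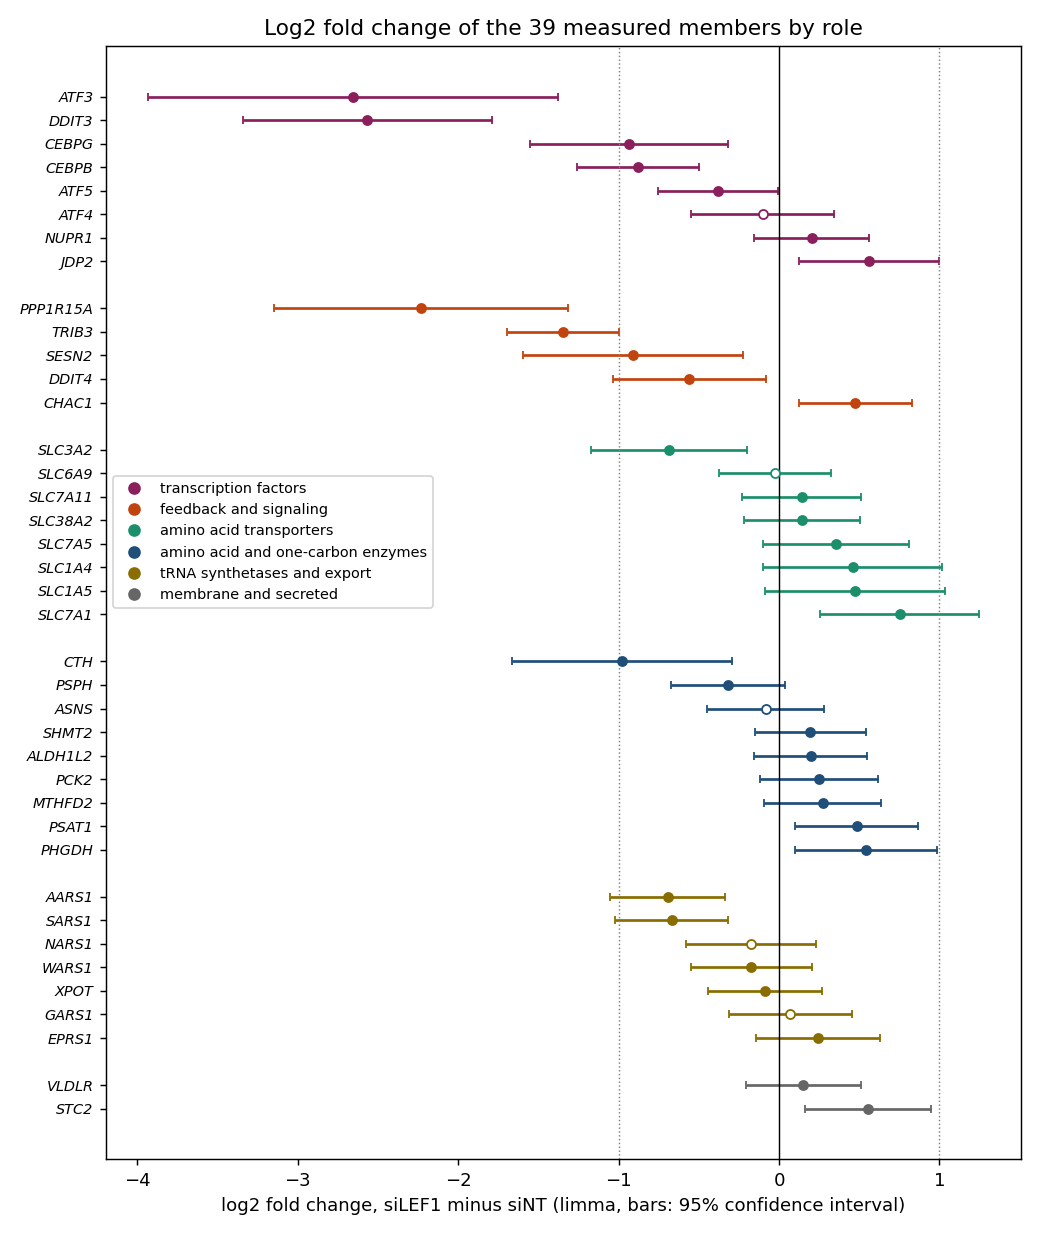
Log2 fold change (horizontal axis, siLEF1 minus siNT) of the 39 measured members, grouped by role, with 95% confidence intervals from limma. Filled circles are members whose groups did not overlap, open circles the 5 that overlapped, and dotted lines mark a 2-fold change. Regulators and feedback genes reach from -2.65 to 0.56, whereas transporters and enzymes lie between -0.98 and 0.75.

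By role, the median log2 fold change was -0.63 over the 8 transcription factors, -0.91 over the 5 feedback and signaling genes, 0.25 over the 8 transporters, 0.20 over the 9 measured enzymes and -0.17 over the 7 measured genes of tRNA loading and export. Against siNT replicate 1 alone and siNT replicate 2 alone these medians were -0.43 and -0.73 for the transcription factors, -0.48 and -1.31 for the feedback genes and 0.14 and 0.40 for the transporters. They were 0.19 and 0.20 for the enzymes, and -0.11 and -0.07 for tRNA loading and export. The sign of each role's median was the same with either siNT array, while the size depended on the array most in the feedback genes. Since the arrays read bulk RNA, fewer cells of a kind and less RNA per cell cannot be told apart in any of these values.

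ATF4, a very bright probe set, was at 12.63 and 12.72 on the log2 scale under siLEF1 and at 12.58 and 12.98 under siNT. The siLEF1 arrays lay between the siNT arrays, and the log2 fold change was -0.10 (95% confidence interval -0.55 to 0.35, limma adjusted p = 0.842). This is the amount of ATF4 mRNA, while the factor is controlled to a large part in its translation, which the arrays do not measure.

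The partners DDIT3 and ATF3 had the most negative values among the regulators. DDIT3 (CHOP), a factor that promotes cell death under lasting stress, had 8.33 and 8.22 under siLEF1, against 10.33 and 11.35 under siNT. Its log2 fold change of -2.57 came close to the threshold without passing it (95% confidence interval -3.34 to -1.79, limma adjusted p = 0.0562). ATF3, a bZIP factor that many stresses induce, had 8.06 and 7.89 under siLEF1, against 9.73 and 11.53 under siNT. The groups did not overlap, but the siNT replicates differed by 1.80, and the log2 fold change of -2.65 did not pass (standard error 0.53, limma adjusted p = 0.111).

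The probe sets used for the C/EBP factors differed in how steady they were. CEBPB, a dimer partner of ATF4, had 10.43 and 10.43 under siLEF1, against 11.19 and 11.42 under siNT. Its log2 fold change was -0.88 (95% confidence interval -1.26 to -0.50, limma adjusted p = 0.0957). CEBPG, another partner of ATF4, had 9.56 and 9.32 under siLEF1, against 10.03 and 10.73 under siNT, and a log2 fold change of -0.94 (limma adjusted p = 0.179). The dimmer probe set of CEBPG had 9.06 and 8.94 under siLEF1, against 9.28 and 9.31 under siNT. There the siNT arrays were close, and the log2 fold change was -0.30 (limma adjusted p = 0.397). JDP2, a bZIP repressor, lay on the other side, with 8.69 and 8.73 under siLEF1, against 8.34 and 7.96 under siNT (log2 fold change 0.56, limma adjusted p = 0.228). Of the remaining regulators ATF5 had a log2 fold change of -0.38, and NUPR1, whose signals were below the median of every array, one of 0.20. None of the 8 factors passed, and 5 had an unadjusted p under 0.05 on the lower side and 1 on the higher side. The shares over all genes were 11.5% and 7.00%.

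TRIB3, a pseudokinase that ATF4 and CHOP induce and that restrains ATF4, had close replicates in both groups. It had 10.43 and 10.43 under siLEF1, against 11.81 and 11.74 under siNT. The gap between the groups was wider than the spread within either, and the log2 fold change was -1.35 (standard error 0.15, limma adjusted p = 0.0454). The value was -1.38 against siNT replicate 1 alone (limma adjusted p = 0.122) and -1.31 against siNT replicate 2 alone (limma adjusted p = 0.0427). Without siLEF1 replicate 1 or 2 it was -1.35 in each case and lost the call (limma adjusted p = 0.684 and 0.542). It also lost the call when dim probe sets were left out (limma adjusted p = 0.0655), and without variance moderation (adjusted p = 0.598 from the F test of the linear model across all probe sets).

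PPP1R15A (GADD34) brings phosphatase 1 to eIF2 and so restarts translation. It had 6.85 and 6.65 under siLEF1, against 8.37 and 9.60 under siNT, and a log2 fold change of -2.23 that did not pass (standard error 0.38, limma adjusted p = 0.0914). SESN2, a leucine sensor that holds back the growth kinase mTORC1, had 7.85 and 7.95 under siLEF1, against 8.38 and 9.24 under siNT (log2 fold change -0.91, limma adjusted p = 0.216). The dimmer probe set of SESN2 had 6.62 and 7.32 under siLEF1, against 7.25 and 7.97 under siNT, which overlap (log2 fold change -0.63, limma adjusted p = 0.405). DDIT4 (REDD1), which also restrains mTORC1, had a log2 fold change of -0.56 (limma adjusted p = 0.262). In the brightest probe sets of these 3 genes the siLEF1 arrays were lower and siNT replicate 2 was the highest array. CHAC1, which breaks down glutathione and is a known target of ATF4, did not follow them. It had 7.71 and 7.69 under siLEF1, against 7.18 and 7.26 under siNT, so that both siLEF1 arrays were above both siNT arrays (log2 fold change 0.48, 95% confidence interval 0.12 to 0.83, limma adjusted p = 0.212). All 5 feedback and signaling genes had an unadjusted p under 0.05, 4 of them lower and CHAC1 higher. Over all genes the shares were 11.5% lower and 7.00% higher, and over the brighter genes 16.1% and 10.7%.

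**Figure D2:**
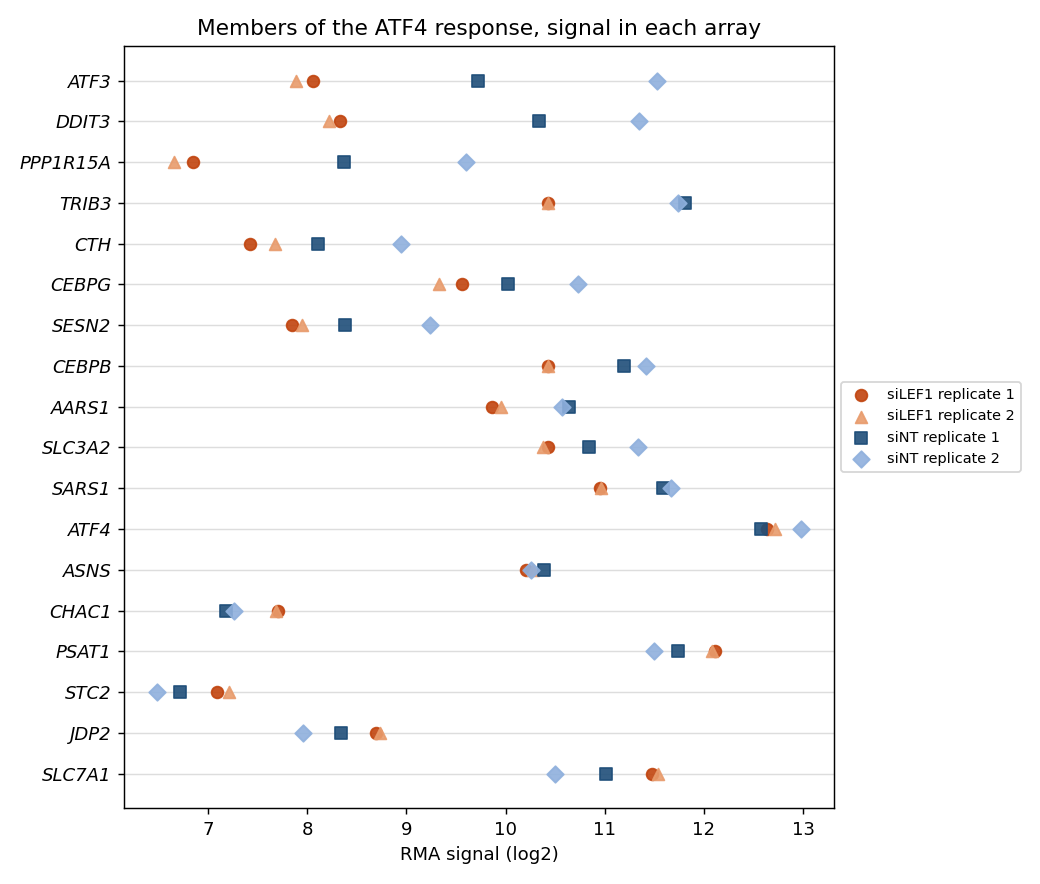
Horizontal axis, log2 RMA signal. Each line is 1 of the 18 members given array by array, ordered by log2 fold change. siLEF1 arrays are drawn as circles and triangles, and siNT arrays as squares and diamonds. TRIB3, AARS1 and SARS1 show tight pairs in both groups, whereas in DDIT3, ATF3 and PPP1R15A the siNT replicates lie 1.01, 1.80 and 1.23 apart.

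Promoters of 4 of these genes that hold the same short response element letters are printed. They have the smallest p among the members given array by array with a match, and their values lie in both directions. The search was for TGATGNAA on both strands, the core of the C/EBP-ATF response element, in the 250 bases before each RefSeq start site (GRCh38.p14). Of the measured members 34 had a promoter entry (all but ALDH1L2, NUPR1, PSPH, SHMT2 and SLC7A11) and 8 of these genes held a match, namely ATF3, AARS1, CEBPG, CHAC1, JDP2, SLC1A5, ASNS and GARS1. By gene this was 23.5% of 34, against 3.89% of all 27305 genes with a promoter entry. By window it was 14.8% of 54, against 3.14% of all 35116 promoters. The members were listed as ATF4, its partners and genes known to respond to it, so these shares are not a test of the element. Capitals mark the match, which starts 191 bases before the start site in ATF3, 187 in AARS1, 42 in CEBPG and 209 in CHAC1. Each sequence is written in the direction of its gene, and in AARS1 and CHAC1 the element lies on the opposite strand, so that the capitals read TTNCATCA. ATF3 and CEBPG have 2 listed start sites each, of which the one with the match is shown.
ATF3 (chr1:212565157-212565406, plus strand): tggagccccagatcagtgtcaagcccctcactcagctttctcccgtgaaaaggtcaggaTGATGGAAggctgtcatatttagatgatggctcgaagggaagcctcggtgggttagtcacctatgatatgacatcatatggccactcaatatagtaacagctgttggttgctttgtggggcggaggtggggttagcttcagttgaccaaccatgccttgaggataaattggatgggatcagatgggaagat
AARS1 (chr16:70289507-70289756, minus strand): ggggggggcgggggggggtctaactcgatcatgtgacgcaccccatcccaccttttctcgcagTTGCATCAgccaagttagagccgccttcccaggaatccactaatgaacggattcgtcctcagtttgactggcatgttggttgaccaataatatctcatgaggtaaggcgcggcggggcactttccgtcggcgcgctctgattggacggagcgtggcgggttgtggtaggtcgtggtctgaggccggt
CEBPG (chr19:33373863-33374112, plus strand): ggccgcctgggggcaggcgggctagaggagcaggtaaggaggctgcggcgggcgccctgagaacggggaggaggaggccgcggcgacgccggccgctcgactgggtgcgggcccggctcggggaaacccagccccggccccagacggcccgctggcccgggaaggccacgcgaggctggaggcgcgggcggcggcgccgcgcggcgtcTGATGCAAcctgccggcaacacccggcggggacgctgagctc
CHAC1 (chr15:40953221-40953470, plus strand): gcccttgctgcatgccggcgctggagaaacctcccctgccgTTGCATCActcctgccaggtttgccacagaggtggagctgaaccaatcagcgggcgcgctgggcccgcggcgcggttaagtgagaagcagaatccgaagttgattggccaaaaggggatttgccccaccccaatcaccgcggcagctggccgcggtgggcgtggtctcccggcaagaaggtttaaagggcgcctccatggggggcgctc
Of the 8 genes with a match, the log2 fold changes ran from -2.65 in ATF3 to 0.56 in JDP2, with ASNS at -0.08. A match is a description of letters and not a site of binding.

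Amino acid transporters were mostly near 0 or slightly above it in value. In 6 of the 8 both siLEF1 arrays lay above both siNT arrays, against 28.1% of all genes and 32.3% of the brighter genes. None passed, with 1 lower and 1 higher at an unadjusted p under 0.05 (11.5% and 7.00% of all genes). SLC7A1, the carrier of arginine and lysine, had 11.48 and 11.54 under siLEF1, against 11.01 and 10.50 under siNT (log2 fold change 0.75, 95% confidence interval 0.26 to 1.25, limma adjusted p = 0.179). The neutral amino acid carriers SLC1A5 and SLC1A4 had log2 fold changes of 0.47 and 0.46, and SLC7A5 (LAT1), which imports leucine, one of 0.36. For SLC38A2 and for SLC7A11, the cystine carrier, the value was 0.14 in each. SLC3A2, the heavy chain that both SLC7A5 and SLC7A11 need at the cell surface, was the exception, with 10.43 and 10.38 under siLEF1, against 10.84 and 11.34 under siNT (log2 fold change -0.69, limma adjusted p = 0.202). The glycine carrier SLC6A9 had signals of 3.01 to 3.07 over all arrays, below the array medians, where a difference could be missed.

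Among the enzymes 6 had both siLEF1 arrays above both siNT arrays and 2 had both below. The shares over all genes were 28.1% above and 26.4% below, and over the brighter genes 32.3% and 35.3%. ASNS makes asparagine and is a classical target of ATF4. It had 10.20 and 10.28 under siLEF1, against 10.39 and 10.26 under siNT, which overlap (log2 fold change -0.08, 95% confidence interval -0.45 to 0.28, limma adjusted p = 0.840). In serine synthesis PHGDH, PSAT1 and PSPH carry out successive steps. PSAT1 had 12.11 and 12.09 under siLEF1, against 11.73 and 11.50 under siNT (log2 fold change 0.48, limma adjusted p = 0.235). PHGDH had a log2 fold change of 0.54 (limma adjusted p = 0.245), while PSPH had one of -0.32 (limma adjusted p = 0.369). The mitochondrial folate enzymes MTHFD2 and SHMT2 had values of 0.27 and 0.20 in their brightest probe sets, and the dimmer one of MTHFD2 had 1.12. PCK2, the mitochondrial PEP carboxykinase, had 0.25. ALDH1L2, at 0.20, lay below the median of every array. CTH, which makes cysteine from cystathionine, went the other way in value, with 7.42 and 7.67 under siLEF1, against 8.11 and 8.94 under siNT (log2 fold change -0.98, limma adjusted p = 0.197). Of the 9 enzymes 0 passed, with 1 lower and 2 higher at an unadjusted p under 0.05 (11.5% and 7.00% of all genes).

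Among the synthetases AARS1 and SARS1, which load alanine and serine onto their tRNAs, had the most negative values. AARS1 had 9.86 and 9.96 under siLEF1, against 10.64 and 10.57 under siNT (log2 fold change -0.69, 95% confidence interval -1.05 to -0.34, limma adjusted p = 0.125). SARS1 had 10.96 and 10.96 under siLEF1, against 11.59 and 11.67 under siNT (log2 fold change -0.67, 95% confidence interval -1.02 to -0.32, limma adjusted p = 0.129). As with TRIB3, the siNT replicates of both genes were within 0.08 of each other, and the values hardly depended on which siNT array was used. WARS1 and NARS1 had log2 fold changes of -0.17 each, GARS1 one of 0.07 and EPRS1 one of 0.24, while XPOT, the exporter of tRNAs from the nucleus, had -0.09. In all 7 the adjusted p missed the threshold, and 2 had an unadjusted p under 0.05, both on the lower side, where the share over all genes was 11.5%.

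STC2, a secreted glycoprotein, had 7.09 and 7.21 under siLEF1, against 6.71 and 6.48 under siNT (log2 fold change 0.55, limma adjusted p = 0.200). VLDLR, a lipoprotein receptor that ATF4 induces, had a log2 fold change of 0.15 (limma adjusted p = 0.681).

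Which siNT array served as control changed the size of many values. In 26 of the 39 members siNT replicate 1 lay between the siLEF1 arrays and siNT replicate 2, as it did in 38.1% of all genes and in 53.4% of genes with a mean log2 signal of at least 6 (24 of the 36 members above that level). Against siNT replicate 1 alone the siLEF1 mean was more than 2-fold lower in 4 members, where the share over all genes was 2.23%. Against siNT replicate 2 alone it was so in 7 members, where the share was 4.25%. It was more than 2-fold higher in 0 and in 1 member (SLC7A1), where the shares were 0.192% and 1.75%. DDIT3 had a difference of -2.06 from siNT replicate 1 and of -3.07 from siNT replicate 2. For ATF3 the values were -1.75 and -3.55, and for PPP1R15A -1.62 and -2.84. CTH, SESN2 and CEBPG lay at -0.56, -0.48 and -0.58 from siNT replicate 1 and at -1.39, -1.34 and -1.29 from siNT replicate 2, so that these 3 were over 2-fold lower against siNT replicate 2 and not against siNT replicate 1. In contrast CEBPB had -0.76 and -0.99, AARS1 -0.73 and -0.66, and SARS1 -0.63 and -0.71. SLC1A5 and SLC1A4 were at 0.15 and 0.14 from siNT replicate 1, and at 0.79 and 0.77 from siNT replicate 2. CHAC1 was at 0.51 and 0.44, and ATF4 at 0.10 and -0.31, with opposite signs. Apart from ATF4, each of the other 38 members kept its sign against both siNT arrays. Without siNT replicate 1, limma called 7 members lower (DDIT3, ATF3, PPP1R15A, TRIB3, SESN2, CTH and CEBPG) among 782 genes called on the whole array, with the lone siNT array assumed to vary like the siLEF1 pair. Without siNT replicate 2 it called 0 genes.

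**Figure D3:**
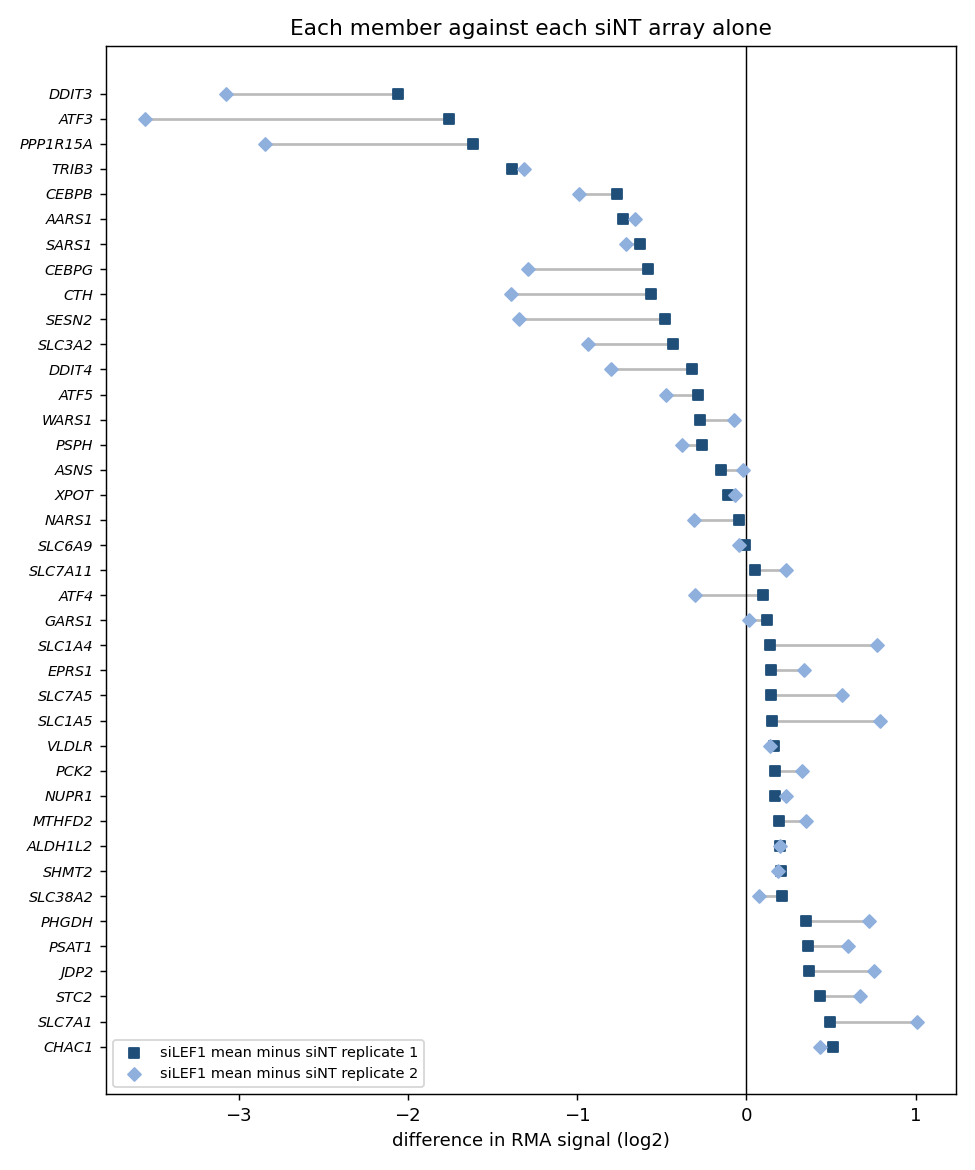
Mean of the siLEF1 arrays minus each siNT array alone (horizontal axis, log2) for the 39 members, with squares for siNT replicate 1 and diamonds for siNT replicate 2. The pair of values is close in TRIB3 (-1.38 and -1.31) and wide in ATF3 (-1.75 and -3.55).

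Further probe sets were available for 23 of the members, and in 16 of these genes every probe set had the same sign. The second probe set of TRIB3 had 7.25 and 7.05 under siLEF1, against 8.38 and 8.28 under siNT (log2 fold change -1.18), and did not pass on its own (limma adjusted p = 0.0606). That of PPP1R15A had 6.19 and 6.15 under siLEF1, against 7.98 and 9.17 under siNT (-2.40). The dimmer probe set of SARS1 had a larger difference than the brighter one, -1.54, and those of CTH and PSAT1 had -1.15 and 0.95. ATF3 was uneven, with -0.95 and -0.18 in its dimmer probe sets. In XPOT the brighter probe set was at -0.09, and the dimmer one had 9.98 and 9.81 under siLEF1, against 9.33 and 8.63 under siNT (log2 fold change 0.92). The dimmer probe set of MTHFD2 had 8.15 and 8.08 under siLEF1, against 7.45 and 6.55 under siNT. Its log2 fold change of 1.12 did not pass (limma adjusted p = 0.171), and the brighter one was at 0.27. EPRS1 had 1.07 in both of its dimmer probe sets, but its siLEF1 replicates also lay apart, at 9.40 and 10.48 in one of them. Signs differed between probe sets in ALDH1L2, ASNS, ATF5, SLC7A1, SLC7A11, STC2 and XPOT, and in SLC7A11 the dimmest probe set was at -0.50 while the brightest was at 0.14.

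Upstream of ATF4, the list of 16 genes for the eIF2 kinases, eIF2 and its exchange factor eIF2B was centred on -0.16 (median log2 fold change). In it 0 passed, with 2 lower and 2 higher at an unadjusted p under 0.05, where 11.5% and 7.00% of all genes were. The median of the list was -0.02 against siNT replicate 1 alone and -0.13 against siNT replicate 2 alone. EIF2AK3 (PERK), the kinase of the endoplasmic reticulum, had 8.65 and 8.57 under siLEF1, against 9.27 and 9.86 under siNT (log2 fold change -0.95, limma adjusted p = 0.142). EIF2S3, the gamma subunit of eIF2, had a log2 fold change of 0.68 and the eIF2B subunit gene EIF2B2 one of -0.55. Among 18 further targets of ATF4 the median was -0.10 (-0.09 and -0.01 against siNT replicates 1 and 2 alone) and 0 passed, with 3 lower and 3 higher at an unadjusted p under 0.05. GDF15, a stress cytokine, had 4.83 and 4.83 under siLEF1, against 5.94 and 5.80 under siNT (log2 fold change -1.04, limma adjusted p = 0.0710). LAMP3, a lysosomal membrane gene, had 10.10 and 9.82 under siLEF1, against 8.62 and 7.92 under siNT (log2 fold change 1.69, limma adjusted p = 0.0775). GADD45A, a gene of growth arrest, had a log2 fold change of -1.36 (limma adjusted p = 0.146). These targets had values in both directions, as the members did.

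The ATF6 and XBP1 branch of the unfolded protein response, which controls chaperones of the endoplasmic reticulum, was measured by 19 genes. Of these 15 were below 0, where 46.5% of all genes were. The median log2 fold change of the branch was -0.28 (-0.34 and -0.46 against siNT replicates 1 and 2 alone). None passed in limma, while 8 were lower and 1 was higher at an unadjusted p under 0.05, where 11.5% and 7.00% of all genes were. DNAJB9 had a log2 fold change of -1.57 (limma adjusted p = 0.0599), XBP1 one of -0.87 and HSPA5 (BiP) one of -0.91. Folate and methionine cycle genes outside the members lay on the other side, with a median of 0.36. All 10 measured had values above 0, as did 10581 of all 19775 genes. None passed, with 2 higher and 0 lower at an unadjusted p under 0.05 (7.00% and 11.5% of all genes). AHCY, GCSH and MAT2A had log2 fold changes of 0.72, 0.71 and 0.41. In this list siNT replicate 2 minus siNT replicate 1 had a median of -0.37, and against siNT replicate 1 alone the list's median was 0.13. For the 12 other cytosolic synthetase genes measured, among them the scaffold gene AIMP1, the median was -0.04 and 0 passed. At an unadjusted p under 0.05 there were 2 lower and 1 higher (11.5% and 7.00% of all genes). FARSA had a log2 fold change of 0.60, CARS1 one of -0.47 and AIMP1 one of -0.39.

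**Figure D4:**
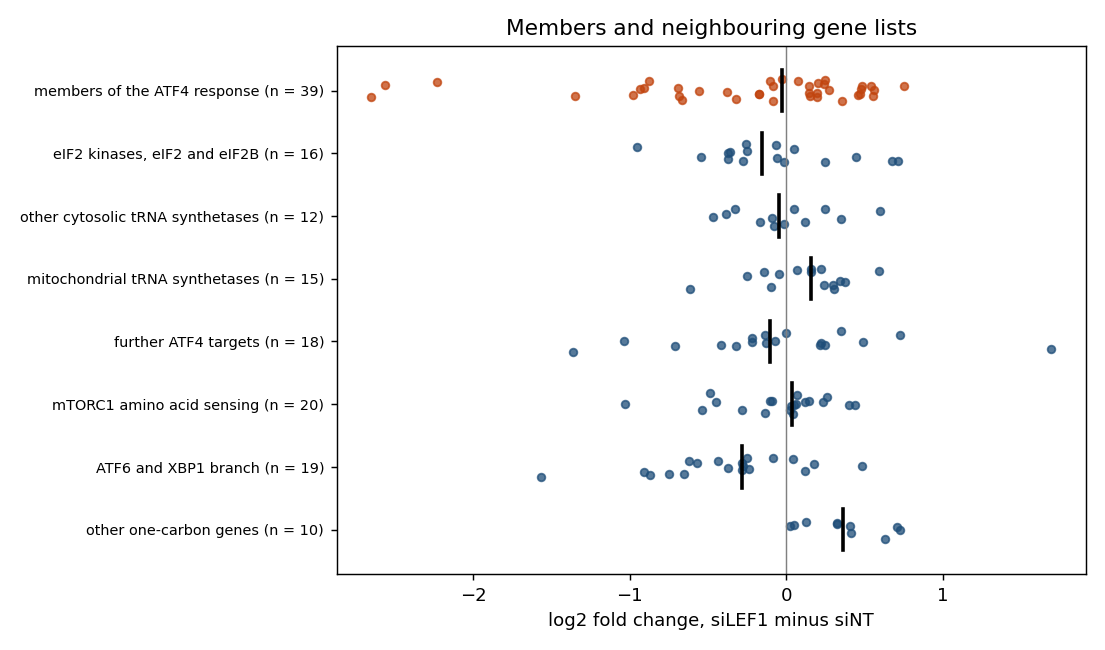
Log2 fold change (horizontal axis, siLEF1 minus siNT) of each gene in the ATF4 response (top row) and in the 7 neighbouring lists, with a vertical bar at each median. The members have a median of -0.03 and a tail to -2.65, the ATF6 and XBP1 branch has a median of -0.28, and the other folate and methionine cycle genes (other one-carbon genes) lie above 0.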

How the data were processed

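RNA of 4 Jurkat samples was read on Affymetrix HG-U133 Plus 2.0 arrays. Per the submitters' processing notes, the authors used Affymetrix Expression Console 1.1 with RMA, and deposited log2 signals for every probe set of each array. Nothing further was normalized. After 62 control probe sets were left out, 54613 were fitted in R 4.3.3 by lmFit and eBayes of limma 3.58.1 (2-sided, 2 residual degrees of freedom plus 4.30 from other probe sets) and adjusted by the Benjamini-Hochberg method. The study's methods compare 3 groups with limma, and here the 2 labelled groups were compared. Symbols came from the platform annotation, updated by Entrez number (41037 of 41091 probe sets with 1 symbol). The number of arrays limits the precision, and no exact permutation test of 2 against 2 arrays can give a p under 0.333.

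The members and the lists were chosen with earlier results of these data known, so no set test and no adjustment over a list alone is given. Values in every array are given for ATF4, DDIT3, TRIB3, ASNS and CHAC1 and for the 16 members with the smallest p. Up to 3 genes with the smallest p are named in each other list, and promoters are printed for the 4 genes with the smallest p among these members with a match. Housekeeping genes (10 measured, median log2 fold change 0.15) served for an alternative centring. The alternatives tried were leaving out probe sets averaging under 6 (19383 kept), a trend with robust eBayes, an F test without moderation, the replicate block, centring on array medians or housekeeping genes, other probe set choices, adjusted p alone and each array left out. The model was tested on simulated data.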

Additional observations from a re-analysis of the deposited data

How the results depend on the processing

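Of the members, 1 was called lower with all arrays, where 65 genes of the whole array were called in either direction. It was 0 with the filter on dim probe sets (3 genes over the array) and with the F test without moderation (0 genes). It was 2 with a trend and robust eBayes (83 genes), with housekeeping centring (151 genes) and without probe sets ending in _x_at or _s_at (69 genes, 27 members left), where DDIT3 joined TRIB3. It was 4 with the mean of all probe sets of a gene (TRIB3, DDIT3, SARS1 and PPP1R15A, of 197 genes), and 0 to 7 when an array was left out (0 without siLEF1 replicate 1, siLEF1 replicate 2 or siNT replicate 2, where no gene at all was called, and 7 of 782 genes without siNT replicate 1, with the lone array assumed to vary like the other group). With the replicate block 4 were called (TRIB3, DDIT3, PPP1R15A and ATF3, of 485 genes). The deviations of same-numbered arrays from their group means had r = -0.15 across probe sets. The labels give only a replicate number, and with 2 arrays in each group this r cannot show whether same-numbered arrays were paired. The crossed replicate block, added after seeing the data, also called 4, of 419 genes. The count of members called higher was 0 in each of these settings. The counts of members without overlap under other centring were also added after seeing the data. The median log2 fold change over members was -0.03. It was -0.0858 with the dim filter (36 members), -0.113 with housekeeping centring, which shifted every value by the same amount so that the median of all genes was -0.06 in place of 0.02, -0.0876 without _x_at and _s_at probe sets, and -0.0418 to 0.0526 when an array was left out. ASNS changed sign to 0.0878 without _x_at and _s_at probe sets and to 0.00184 with the mean of all probe sets. ATF4 ran from -0.305 to 0.100 when an array was left out, with the positive value without siNT replicate 2. LEF1, for which every probe set ends in _s_at, had no value without these, and elsewhere kept its direction and did not pass. NUPR1, ALDH1L2 and SLC6A9 lay below the median of every array, where differences can be missed.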

Other observations

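Of the mitochondrial tRNA synthetases, which serve translation inside the organelle, 15 genes were measured, with 0.16 as the median log2 fold change. In 10 both siLEF1 arrays lay above both siNT arrays, as in 28.1% of all genes and 32.3% of the brighter genes. None passed in limma, with 1 lower and 2 higher at an unadjusted p under 0.05 (11.5% and 7.00% of all genes). CARS2 had 8.90 and 8.97 under siLEF1, against 8.45 and 8.25 under siNT (log2 fold change 0.59), while HARS2 had a log2 fold change of -0.62 and EARS2 one of 0.37.

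In the amino acid sensing arm of mTORC1 the median log2 fold change was 0.04 over 20 genes. However, it was -0.08 against siNT replicate 1 alone and 0.11 against siNT replicate 2 alone. In limma 0 passed, with 3 lower and 1 higher at an unadjusted p under 0.05 (11.5% and 7.00% of all genes). The 4 Rag GTPase genes carry the amino acid signal to the lysosome, and in 3 of them both siLEF1 arrays lay below both siNT arrays, while RRAGD lay above. Over all genes 26.4% lay below in this way and 28.1% above (35.3% and 32.3% of the brighter genes). RRAGB had 6.05 and 5.91 under siLEF1, against 6.76 and 7.25 under siNT (log2 fold change -1.03, limma adjusted p = 0.110), RRAGC had a log2 fold change of -0.54, RRAGA one of -0.45 (named after its values were seen), and RRAGD had 11.04 in both siLEF1 arrays, against 10.61 and 10.59 under siNT (log2 fold change 0.44, limma adjusted p = 0.237).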
